A study of Bos taurus with 40 samples.

Results

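The mitochondrially encoded respiratory chain genes were followed in muscle of growing bulls of the Holstein-Friesian breed, kept for dairying, during feed restriction and after the return to full feeding. They were taken as 8 Ensembl rows of the count tables, chosen by their identifiers, out of 24616 gene rows. 4 rows are given as subunits of complex I, ND1 (ENSBTAG00000043558), ND2 (ENSBTAG00000043568), ND4 (ENSBTAG00000043576) and ND5 (ENSBTAG00000043546). CYTB (ENSBTAG00000043550) is given for complex III, and COX1 (ENSBTAG00000043561), COX2 (ENSBTAG00000043556) and COX3 (ENSBTAG00000043560) for complex IV. The count tables hold identifiers only, and the symbols are those given with the list of rows. The reference used for names (RefSeq, ARS-UCD2.0) lists 13 protein-coding genes on the mitochondrial genome, among them all 8 of these symbols, but it pairs no Ensembl identifier with a symbol. The symbol of each row was therefore not checked. For the same reason the muscle origin of the samples and the presence of other cell types were not checked against marker genes.

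The mitochondrial genome encodes a small core of the respiratory chain, and all other subunits are encoded in the nucleus and imported. ND1, ND2, ND4 and ND5 are membrane subunits of complex I, the NADH dehydrogenase, which passes electrons to ubiquinone and pumps protons. CYTB is cytochrome b, the mitochondrially encoded subunit of complex III. COX1 holds the site where complex IV, cytochrome c oxidase, reduces oxygen, COX2 takes up electrons from cytochrome c, and COX3 completes the core of that enzyme. The mitochondrial mRNAs are cut from long transcripts that span many genes, and their levels in muscle depend on mitochondrial content as well as on transcription and RNA decay.

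The study followed 20 male bulls, 10 per feeding group. The restricted bulls were held for 125 days (period 1) on an allowance meant to give a gain of 0.6 kg per day, and were then fed without limit for 55 days (period 2). The control bulls were fed without limit in both periods, and all animals ate 70% concentrate and 30% grass silage. Biopsies of muscle were taken on day 120 of period 1, near the end of restriction, and on day 15 of period 2, when refed cattle are known to grow faster than usual (compensatory growth), and mRNA was sequenced in 10 libraries per group and time. Ages and genotypes are not given in the labels. The depth of a library, its summed counts over gene rows, ranged from 20.8 to 32.97 times 1000000 counts (median 25.6).

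7 libraries stood apart in how their reads were distributed. In these, reads outside genes were 10.0% to 11.2% of the total, and in the other 33 libraries 13.3% to 18.7%. They were the libraries of restricted bulls 1 and 9 and control bull 6 on day 120, and of previously restricted bull 10 and control bulls 2, 3 and 8 on day 15. Of the 7, 4 are thus of control bulls, and 3 of these fall in the control group of day 15. The 7 libraries share 2 values of the first library code number, and only the library of control bull 2 on day 120 also has 1 of these values. A factor for this number and a term for the 7 libraries therefore overlap. Where estimates or orders named below turned without these libraries, the values without them stand beside them.

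The mitochondrial rows took up a mean of 10.5% to 11.9% of gene counts in the 4 groups, with the highest mean and the widest spread in previously restricted bulls on day 15. Summed over the rows, they held 10.8 ± 1.41% of gene counts in restricted bulls (SD, n = 10 in each group; lowest 8.43%, median 10.7%, highest 13.1%) and 10.5 ± 1.54% in control bulls (8.33%, 11.1%, 12.3%) on day 120. On day 15 they held 11.9 ± 2.36% in previously restricted bulls (8.04%, 12.0%, 15.8%) and 10.6 ± 1.17% in control bulls (8.28%, 10.6%, 12.4%). The groups overlapped at both times. On day 15 the highest control was exceeded by 4 of 10 previously restricted libraries, led by bull 9 at 15.8% and bull 8 at 14.3%, while bull 2, at 8.04%, lay below every control library. The summed share is a sum over chosen rows and was not tested. In whole muscle RNA, fewer cells of a type and less RNA per cell cannot be told apart.

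Followed bull by bull from day 120 to day 15, the summed share was higher on day 15 in 8 of 10 restricted bulls and in 5 of 10 control bulls. Once each library was scaled by its TMM factor, which corrects for differences in the composition of the libraries, it was higher in 4 of 10 bulls of each feeding group. The mean unscaled change was 0.11 ± 0.22 log2 units in restricted bulls (SD, n = 10) and 0.01 ± 0.18 log2 units in control bulls, so both means were smaller than the spread between animals. The largest increase among restricted bulls was that of bull 9, whose share was 15.8% on day 15 and 10.8% on day 120. The largest among control bulls was that of bull 2, with 10.9% on day 15 and 8.33% on day 120. The counting error is small beside these differences, since the widest 95% Wilson interval of a summed share was ± 0.0141 percentage points, which covers counting error only.

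**Figure D1:**
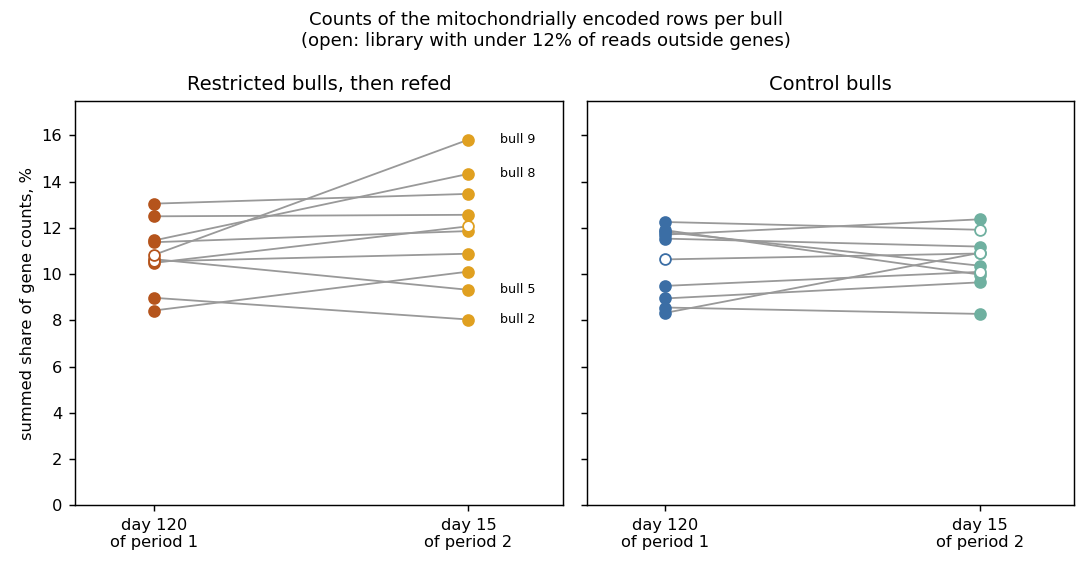
Summed share of the mitochondrial rows in gene counts (y axis, percent) in restricted bulls (left) and control bulls (right) on day 120 of period 1 and day 15 of period 2; each line joins the 2 libraries of a bull and open points are the 7 libraries with under 12% of reads outside genes. Restricted bulls fan out to between 8.04% and 15.8% on day 15, with bulls 9 and 8 on top and bulls 5 and 2 at the bottom, and control bulls stay between 8.28% and 12.4% on day 15.

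The row named ND4 had no count in any of the 40 libraries. ND4 mRNA is known to be abundant in muscle, and since the symbol of the row was not checked, the 0 is a statement about this row and not about ND4 mRNA. 3 counts, the floor used here, correspond to 0.0910 to 0.145 counts per 1000000 gene counts (CPM) depending on the library, while the other 7 rows had at least 34267 counts in each library. Of the 8 rows, 7 could therefore be measured. That smallest count, of ND5 in control bull 5 on day 15, stood for 1601 CPM and had a 95% Wilson interval of 1585 to 1618 CPM. Reads that align equally well to nuclear copies of mitochondrial DNA, or to an overlapping gene on either strand, can be lost or misassigned in such counts. The sources used here give neither the strand setting nor the handling of such reads, so all 7 levels carry this uncertainty. Levels are not per length of the row, so no order of abundance between the genes is read from them. Ratios and parts of rows are compared across libraries only. The CPM values carry no TMM factor. Orders of group means given below are those of unscaled levels, and some of them turn under other scalings.

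Among the complex I subunits, ND1 had its highest mean in previously restricted bulls on day 15. ND1 was at 6672, 8277 and 11007 CPM in restricted bulls (lowest, median and highest of 10 libraries, as for all such triplets) and at 6445, 9120 and 12961 CPM in control bulls on day 120. On day 15 it was at 6336, 9544 and 13905 CPM in previously restricted bulls and at 7439, 8429 and 10941 CPM in control bulls. The group means were 8447 ± 1316 CPM in restricted bulls and 9399 ± 1924 CPM in control bulls on day 120, and 9832 ± 2440 CPM in previously restricted bulls and 8831 ± 1328 CPM in control bulls on day 15 (SD, n = 10 each). From the highest down, the order was previously restricted bulls on day 15, control bulls on day 120, control bulls on day 15 and restricted bulls on day 120, and no neighbours in it differed by more than their spread. The day 15 values of previously restricted bulls reached both below and above all controls, with 2 libraries below the lowest and 3 above the highest control.

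ND2 showed no common direction across the times. It was at 3110, 4775 and 6533 CPM in restricted bulls and at 3055, 4244 and 6273 CPM in control bulls on day 120. Its day 15 values were 2832, 4532 and 5665 CPM in previously restricted bulls and 3691, 4765 and 7856 CPM in control bulls. The 3 highest control values of day 15 all came from the 7 libraries described above. The means were 4765 ± 990 CPM in restricted bulls and 4472 ± 930 CPM in control bulls on day 120, and 4511 ± 1075 CPM in previously restricted bulls and 5146 ± 1478 CPM in control bulls on day 15. The control bulls of day 15 thus came first, before restricted bulls on day 120, previously restricted bulls on day 15 and control bulls on day 120, with all neighbours closer than their spread. In the 33 other libraries ND2 averaged 4400 ± 1078 CPM in previously restricted bulls (n = 9) and 4321 ± 604 CPM in control bulls (n = 7) on day 15, so the order of these groups rested on the 7 libraries.

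ND5 varied least in the control bulls of day 15. It was at 1633, 2119 and 2743 CPM in restricted bulls and at 1556, 1912 and 2661 CPM in control bulls on day 120. On day 15 it was at 1683, 1949 and 3039 CPM in previously restricted bulls and at 1601, 1966 and 2169 CPM in control bulls. The means were 2168 ± 393 CPM in restricted bulls and 1988 ± 392 CPM in control bulls on day 120, and 2114 ± 413 CPM in previously restricted bulls and 1964 ± 179 CPM in control bulls on day 15. Ranked by mean, both restricted groups came before both control groups, with day 120 before day 15 in each pair and with neighbours within their spread. In the authors' normalised values, scaled to their own library sizes, the control groups stood the other way round, at 1919 on day 120 and 1969 on day 15.

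For complex III, CYTB was at 10912, 14488 and 17449 CPM in restricted bulls and at 10635, 15447 and 16790 CPM in control bulls on day 120. By day 15 it stood at 12017, 16553 and 22237 CPM in previously restricted bulls and at 11629, 14928 and 17561 CPM in control bulls. The groups overlapped broadly at both times. The means were 14397 ± 2198 CPM in restricted bulls and 14449 ± 2404 CPM in control bulls on day 120, and 16122 ± 3302 CPM in previously restricted bulls and 15129 ± 1662 CPM in control bulls on day 15. Previously restricted bulls on day 15 ranked highest, followed by control bulls on day 15, control bulls on day 120 and restricted bulls on day 120, and no neighbours differed by more than their spread. With TMM factors the order of the 2 groups of day 120 turned, at a log2 fold change of 0.09 ± 0.13 (SE) for restricted over control bulls. 3 of 10 previously restricted libraries lay above the highest control of day 15, those of bulls 9, 10 and 8.

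Among the complex IV subunits, COX1 had the higher mean in restricted bulls at both times. It was at 42985, 56294 and 66160 CPM in restricted bulls and at 40610, 53540 and 57849 CPM in control bulls on day 120, and 4 of 10 restricted libraries lay above the highest control. On day 15 the values were 37982, 61851 and 80191 CPM in previously restricted bulls and 38989, 52164 and 57820 CPM in control bulls. On that day 6 of 10 previously restricted libraries lay above the highest control and 1 below the lowest. The means were 55106 ± 7825 CPM in restricted bulls and 50285 ± 7382 CPM in control bulls on day 120, and 59188 ± 11884 CPM in previously restricted bulls and 50176 ± 6276 CPM in control bulls on day 15. The order from the top was previously restricted bulls on day 15, restricted bulls on day 120, control bulls on day 120 and control bulls on day 15, again with neighbours within their spread. In the authors' normalised values the control groups stood the other way round, at 48664 on day 120 and 50291 on day 15.

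COX2 had its highest mean in previously restricted bulls on day 15 and its lowest in control bulls of the same day. It was at 5286, 8081 and 10326 CPM in restricted bulls and at 5527, 9067 and 10762 CPM in control bulls on day 120. Its values on day 15 were 6850, 9731 and 15414 CPM in previously restricted bulls and 5494, 7592 and 10307 CPM in control bulls. Of the previously restricted libraries, 8 of 10 lay above the control median and 4 above the highest control (bulls 8, 9, 3 and 1). The means were 7928 ± 1783 CPM in restricted bulls and 8757 ± 1869 CPM in control bulls on day 120, and 10124 ± 2715 CPM in previously restricted bulls and 7653 ± 1650 CPM in control bulls on day 15. Control bulls on day 120 and restricted bulls on day 120 stood between the groups of day 15, and neighbours in this order lay within their spread.

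COX3 overlapped widely between the feeding groups at both times. It was at 12451, 15939 and 19740 CPM in restricted bulls and at 11864, 16628 and 19193 CPM in control bulls on day 120. On day 15 the level was at 10693, 16974 and 21576 CPM in previously restricted bulls and at 12601, 16740 and 21253 CPM in control bulls, so the previously restricted values spanned the whole control range. The means were 15518 ± 2288 CPM in restricted bulls and 15857 ± 2582 CPM in control bulls on day 120, and 16612 ± 3586 CPM in previously restricted bulls and 16791 ± 2631 CPM in control bulls on day 15. Both groups of day 15 thus ranked above both groups of day 120, each time with control bulls first, and all of them lay within the spread of their neighbours. In the 33 other libraries COX3 averaged 16535 ± 3795 CPM in previously restricted bulls (n = 9) and 16088 ± 2739 CPM in control bulls (n = 7) on day 15, so the order of these groups turned without the 7 libraries. With TMM factors the order of the day 120 groups turned as well, at a log2 fold change of 0.07 ± 0.13 (SE) for restricted over control bulls.

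**Figure D2:**
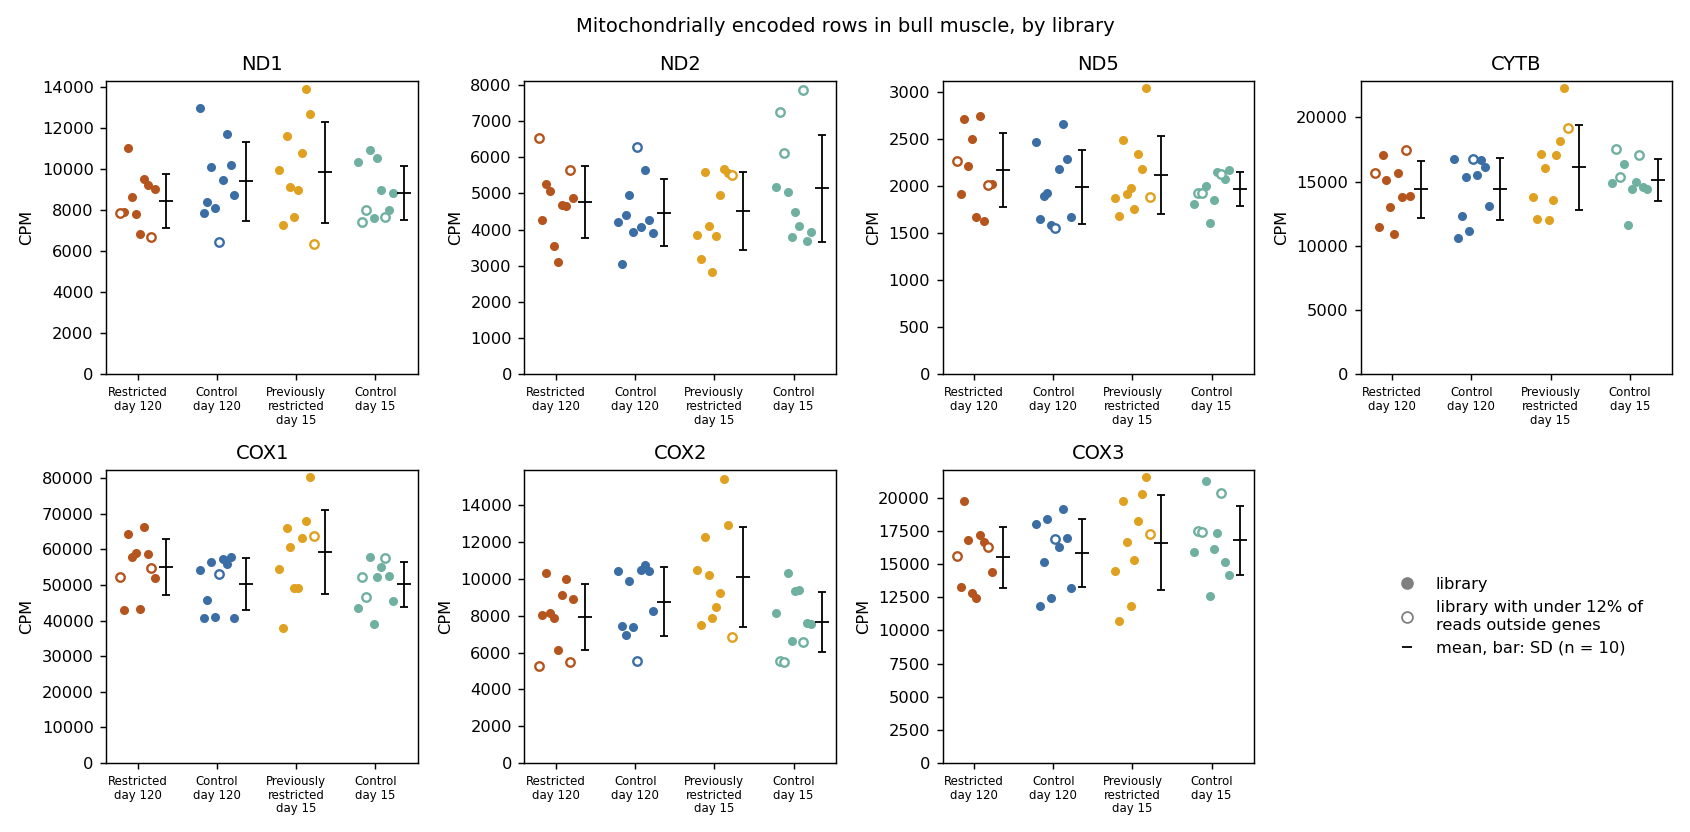
Levels of the 7 counted mitochondrial rows (y axes, CPM, from 0) in each library, in restricted and control bulls on day 120 of period 1 and in previously restricted and control bulls on day 15 of period 2; the dash is the mean, the bar the SD (n = 10), and open points are the 7 libraries with under 12% of reads outside genes. All groups overlap; COX2 on day 15 reaches 15414 CPM in previously restricted bulls and 10307 CPM in control bulls, and the open points are low for COX2 and high for ND2.

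Late in the restriction, none of the mitochondrial genes was called changed in restricted against control bulls. Genes were called at an adjusted p under 0.05 (edgeR's quasi-likelihood test across all 12753 genes tested, Benjamini-Hochberg adjustment), on fold changes scaled with TMM factors. 0 of the 7 genes passed, where 9.79% of all genes tested did, and 0 had an unadjusted p under 0.05, where 3100 of the 12753 did. DESeq2 and limma with voom also called 0 of the 7, where they called 1459 and 1160 of the 12753. 5 estimates were above 0 and 2 below, with a median log2 fold change of 0.09, against -0.04 over all genes. COX1 had the smallest adjusted p, with a log2 fold change of 0.23 ± 0.12 (SE; edgeR adjusted p = 0.238), and ND5 followed with 0.23 ± 0.12 (edgeR adjusted p = 0.250). ND1 was at -0.05 ± 0.12 and COX2 at -0.04 ± 0.14, and without the 7 libraries COX2 was at 0.03. With total counts in place of TMM factors, which moved the median of all genes to -0.14, CYTB and COX3 also lay below 0, at -0.01 and -0.03, so 4 of the 7 estimates were then below 0. A p that misses the threshold does not show equal levels, and the standard errors of 0.12 to 0.18 log2 units set what could be seen.

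On day 15 of full feeding, COX2 was higher in previously restricted than in control bulls and was the 1 gene of the 7 called, where 7.2% of all genes tested were called in either direction and 3.28% as higher. The log2 fold change of COX2 was 0.44 ± 0.14 (SE; edgeR adjusted p = 0.0410), or 1.36-fold. COX1 followed with 0.26 ± 0.12 (edgeR adjusted p = 0.189), ND1 with 0.18 ± 0.12 (edgeR adjusted p = 0.400), ND5 with 0.12 ± 0.12 and CYTB with 0.11 ± 0.13. COX3 was at 0.00 ± 0.13 and ND2 at -0.20 ± 0.18 (edgeR adjusted p = 0.531). The median of the 7 was 0.12, against -0.03 over all genes. In edgeR 2 of the 7, COX2 and COX1, had an unadjusted p under 0.05, where 2971 of all 12753 genes did. DESeq2 also called COX2 alone of the 7, where it called 1154 of the 12753. Limma with voom called 0 of the 7, where it called 850. With total counts the estimate of COX3 was -0.02, and in the fits with a term for the 7 libraries and without them that of ND2 was 0.01 and 0.12.

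The call of COX2 on day 15 lay close to the threshold. Over 52 other fits its log2 fold change stayed between 0.35 and 0.49, while the adjusted p ran from 0.0189 (DESeq2) to 0.107 (edgeR without previously restricted bull 8), and the gene was called in 36 of the 52. It was called in 5 of the 12 fits that changed a setting and in 31 of the 40 that left out 1 library. These 40 include the libraries of day 120, which are not compared here, and leaving out any of those kept the call. The call was lost with limma and voom (adjusted p = 0.0570), with total counts (edgeR adjusted p = 0.0924), with only the groups of day 15 in the fit (edgeR adjusted p = 0.0618) and without a filter on low counts (edgeR adjusted p = 0.0516). It was also lost when 1 library of day 15 was left out, for previously restricted bull 1, 3, 8 or 9 (edgeR adjusted p = 0.0526, 0.0713, 0.107 and 0.102) and for control bull 2, 3, 5, 7 or 8 (edgeR adjusted p = 0.0718, 0.0830, 0.0614, 0.0555 and 0.0526). Control bull 7 on day 15 had the largest TMM factor, 1.43, where those of all other libraries ran from 0.874 to 1.12. Its unscaled COX2 level of 9372 CPM lay above the control median of 7592 CPM, and this factor lowers it. In unscaled CPM the 7 libraries moved with this result: 3 of the 4 control libraries below the lowest previously restricted value of COX2 were among them, as was that lowest value itself. With TMM factors, on which the call rests, control bull 7 takes the place of control bull 8 below that value. The lowest previously restricted value is then that of bull 2, which is not among the 7 libraries. In the 33 other libraries COX2 averaged 10488 ± 2608 CPM in previously restricted bulls (n = 9) and 8420 ± 1293 CPM in control bulls (n = 7). The log2 fold change was 0.42 there (edgeR adjusted p = 0.0655), and with a term for the 7 libraries it was 0.35 (edgeR adjusted p = 0.0508). The authors' deposited normalised values, counts per 1000000 of their own effective library sizes, averaged 10201 ± 2727 for COX2 in previously restricted bulls and 7518 ± 1062 in control bulls on day 15 (SD, n = 10 each).

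From day 120 to day 15, none of the mitochondrial genes was called changed in either feeding group. In restricted bulls 0 of 7 passed, where 19.1% of all genes tested did. The largest estimate was that of COX2, at 0.27 ± 0.14 log2 units (SE; edgeR adjusted p = 0.165), and the median of the 7 was 0.03, against 0.01 over all genes. In a fit that includes a factor for the first code number of each library, this change of COX2 was 0.36 and was called (edgeR adjusted p = 0.0376). That fit called 3383 of all 12753 genes. In control bulls 0 of 7 passed, where 0.0392% of all genes did, with COX2 at -0.21 ± 0.14 (edgeR adjusted p = 0.352) and ND2 at 0.23 ± 0.18 (edgeR adjusted p = 0.443). With a block for each bull, 0 of the 7 were called in either group. COX2 was then at 0.26 in restricted bulls (edgeR adjusted p = 0.166) and -0.20 in control bulls (edgeR adjusted p = 0.354). Without the 7 libraries ND2 was at -0.05, COX3 at -0.04 and CYTB at -0.04 in control bulls, where with all libraries COX3 was at 0.08 and CYTB at 0.07, and COX1 in restricted bulls was at -0.01, against 0.03 with all libraries. DESeq2 and limma with voom called 0 of the 7 in both groups. Of all 12753 genes they called 2662 and 2350 in restricted bulls and 118 and 5 in control bulls. In edgeR 0 of the 7 had an unadjusted p under 0.05 in either group, where 4022 of all genes did in restricted and 2439 in control bulls.

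The difference between the changes of the feeding groups over time, called the interaction, was past the threshold for 0 of the 7 genes, where 6.37% of all genes passed. DESeq2 and limma with voom also called 0, where they called 1068 and 778 of all 12753 genes. In edgeR 1 gene of the 7, COX2, had an unadjusted p under 0.05, where 2802 of all genes did. COX2 had the largest interaction, at 0.48 ± 0.19 log2 units (SE; edgeR adjusted p = 0.122, between 0.0761 and 0.267 over 53 other fits). With a block for each bull, which uses the pairing that the main fit leaves out, it was 0.46 (edgeR adjusted p = 0.126). A different change of COX2 in restricted and control bulls was thus not shown. The most negative interaction was that of ND2, at -0.38 ± 0.25 (edgeR adjusted p = 0.390), and it was -0.05 in the fit nearest to 0. The other 5 genes lay between -0.10 (ND5) and 0.23 (ND1). Without the 7 libraries the interaction of ND5 was 0.01 and that of COX3 0.05, against -0.06 for COX3 with all libraries. The day 15 comparison, the changes over time and the interaction share libraries and are not independent of one another.

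**Figure D3:**
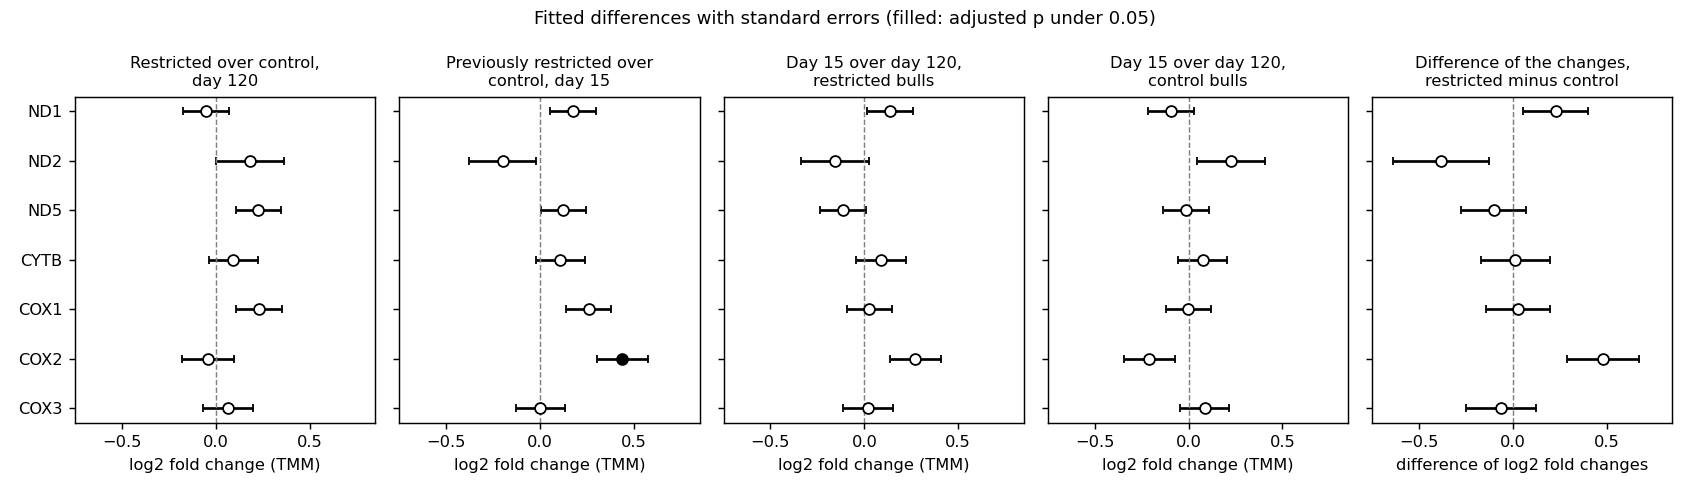
Fitted log2 fold changes (x axes; edgeR with TMM factors; in the rightmost panel the difference of the changes over time) of the 7 counted mitochondrial rows, with bars of 1 standard error, for restricted over control bulls on day 120, previously restricted over control bulls on day 15, day 15 over day 120 in restricted and in control bulls, and the interaction; a filled point has an adjusted p under 0.05. COX2 on day 15 (0.44) is the filled point, and COX2 (0.48) and ND2 (-0.38) lie on opposite sides in the interaction.

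Taken by bull, without scaling factors, COX2 was higher on day 15 than on day 120 in 8 of 10 restricted bulls and in 2 of 10 control bulls. The mean change was 0.34 ± 0.50 log2 units in restricted bulls (SD, n = 10; from -0.38 to 1.23) and -0.19 ± 0.40 in control bulls (from -0.71 to 0.76). On this unscaled measure the extremes came from bulls with a library among the 7: restricted bulls 9 (1.23) and 1 (0.98) had theirs on day 120, restricted bull 10 (-0.38) and control bull 8 (-0.71) on day 15, and control bull 6 (0.76) on day 120. With TMM factors the lowest changes were instead those of restricted bull 2 (-0.20) and control bull 7 (-0.60), which have no library among the 7. CYTB was higher on day 15 in 8 of 10 restricted bulls, with a mean change of 0.15 ± 0.22, and in 6 of 10 control bulls, with 0.08 ± 0.28. ND5 was lower on day 15 in 7 of 10 restricted bulls and in 4 of 10 control bulls. ND2 was higher in 5 of 10 restricted bulls and in 7 of 10 control bulls. With each library scaled by its TMM factor, COX2 was higher on day 15 in 6 of 10 restricted bulls (mean change 0.26 ± 0.47) and in 1 of 10 control bulls (-0.20 ± 0.33), and CYTB in 5 of 10 bulls of each feeding group. On that scale ND5 was lower in 6 of 10 bulls of each feeding group, and ND2 was higher in 4 of 10 restricted and 5 of 10 control bulls. The tallies of these genes and of the summed share thus depend on the scaling, and for each of these genes the spread between bulls exceeded the mean change on both scales.

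The proportions of the mitochondrial rows among themselves differed between the 7 libraries and the others. The ratio of COX2 to ND2 counts was between 0.761 and 1.24 in the 7 libraries and between 1.57 and 2.79 in the 33 others, without overlap. These are the rows with the largest shifts down and up in the 7 libraries, and how many other rows or pairs separate them was not counted. A term for the 7 libraries also raised the count of all genes called on day 120 from 1249 to 2273. COX2 made up 5.01% to 5.67% of the counts of the 7 rows in those libraries and 7.15% to 10.7% in the others. Relative to the other libraries and within groups, the level in the 7, fitted with TMM factors, was 0.72 log2 units higher for ND2, 0.41 for CYTB, 0.29 for COX3, 0.22 for COX1 and 0.08 for ND5, and it was 0.44 lower for COX2 and 0.22 lower for ND1. The TMM factors of the 7 ran from 0.874 to 0.963, so scaling raises their levels. In unscaled CPM, ND5 averaged 1955 in the 7 and 2081 in the others, and COX1 averaged 54286 and 53562. These values are a description, since the 7 libraries were first noticed in the same data. The unscaled summed share did not separate them, at 11.0 ± 0.727% of gene counts in the 7 (SD, n = 7) and 10.9 ± 1.85% in the other 33. Ambiguous reads were also fewer in the 7 libraries, at 0.584% to 0.804% against 0.893% to 1.398% of reads. The part of these read distributions in the results was not tested beyond the fits given with and without the libraries.

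In the 33 other libraries the ratio of COX2 to ND2 counts averaged 1.95 ± 0.191 in restricted bulls (SD, n = 8) and 2.16 ± 0.345 in control bulls (n = 9) on day 120, and 2.41 ± 0.301 in previously restricted bulls (n = 9) and 1.957 ± 0.237 in control bulls (n = 7) on day 15. COX1 made up a larger part of the mitochondrial counts in restricted bulls at both times, with 50.8 ± 2.11% against 47.8 ± 1.70% in control bulls on day 120 and 49.9 ± 1.94% against 47.4 ± 1.87% on day 15 (SD, n = 10 each). COX3 made up a smaller part, with 14.3 ± 0.940% against 15.0 ± 0.714% on day 120 and 14.0 ± 0.743% against 15.8 ± 1.05% on day 15. These parts sum to a fixed total, so a larger part of COX1 lowers the others, and they were not tested. All groups overlapped in the part of COX1.

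**Figure D4:**
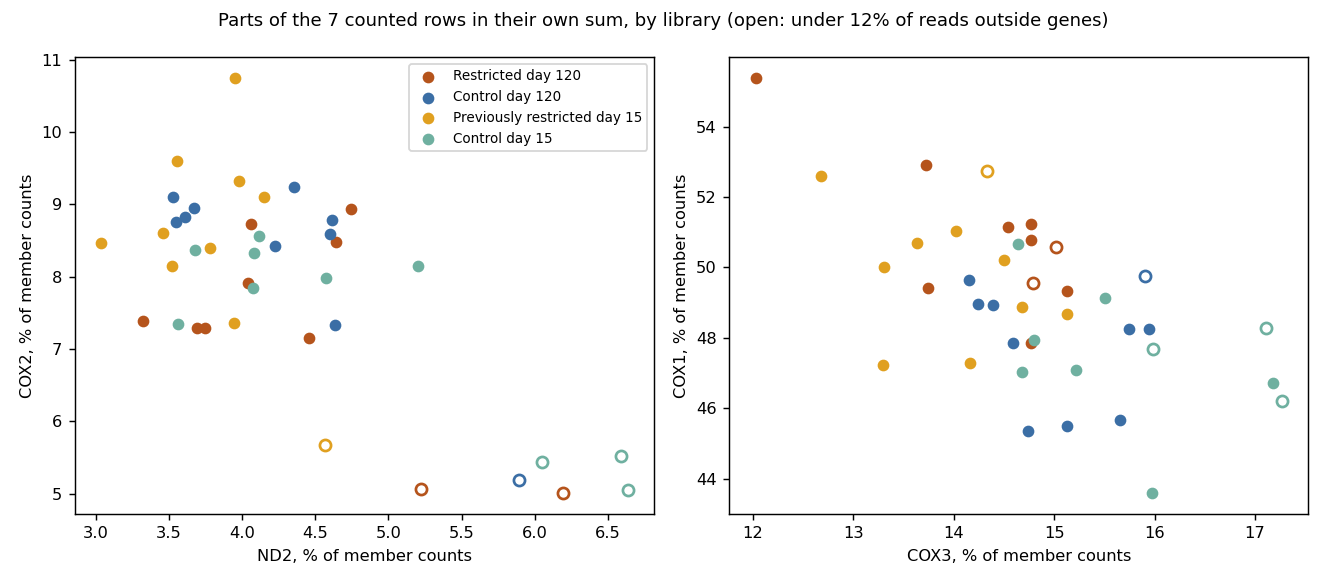
Parts of single rows in the summed counts of the 7 mitochondrial rows (percent), by library, for COX2 (y) against ND2 (x) on the left and COX1 (y) against COX3 (x) on the right; colours give restricted and control bulls on day 120 and previously restricted and control bulls on day 15, and open points are the 7 libraries with under 12% of reads outside genes. On the left the open points lie at 5.01% to 5.67% of COX2, below all others; on the right COX1 is between 43.6% and 55.4%.

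Within groups the mitochondrial rows varied together. In the 33 libraries, the deviations of log2 levels from the group means correlated between all 21 pairs of rows, with Pearson's r from 0.54 (ND2 with ND5) to 0.92 (CYTB with COX3) and a median of 0.83. Over all 40 libraries r ran from -0.02 (ND2 with COX2) to 0.89 and was over 0.5 in 15 of the 21 pairs. The rows share a library and its total, so these values are given as a description, without a p.

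Of 5727 other rows with a mean of at least 10 CPM, the deviations of ENSBTAG00000043577 followed those of the summed mitochondrial rows most closely, with r = 0.80 over 40 libraries. ENSBTAG00000043582 (0.78), ENSBTAG00000043571 (0.77), ENSBTAG00000043563 (0.75) and ENSBTAG00000043584 (0.73) came next. The same 5 rows led by Spearman's rho, and 4 of the 5 remained among the 5 closest without the 7 libraries. In that setting ENSBTAG00000043584 was closest, at 0.93. The lowest values were those of ENSBTAG00000030578 (-0.74) and ENSBTAG00000009702 (-0.73). The files and the reference do not pair these identifiers with gene names, so it is not known here whether they are nuclear or mitochondrial.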

How the data were processed

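Single-end mRNA libraries of 40 muscle biopsies were made after Trizol extraction, DNase treatment and column purification, per the labels' protocols. CASAVA 1.4, TopHat, HTSeq, edgeR and the assembly UMD3.1 are named in the submitters' processing notes, without roles or settings. The authors deposited whole-number read counts per gene. They also deposited a normalised signal that the values show to be counts per 1000000 of an effective library size (0.842 to 1.41 times the gene counts), for 10882 genes of period 1 and 10977 of period 2. Multiplied back, it came within 0.000598 of whole counts. It was used for description only, and all tests used the counts.

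Rows without an Ensembl gene identifier, among them the spike-in RNAs, the reads outside genes and the ambiguous reads, did not enter library sizes. Reads outside genes were 10.0% to 18.7% and ambiguous reads 0.584% to 1.398% of a library, and 92 entries for spike-in RNAs were at 0. Libraries of a group differed by more than sampling noise (smallest chi-square per gene 22.8 over 180 pairs).

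Counts were fitted with edgeR 4.0.16 in R 4.3.3 (quasi-likelihood F test, robust, TMM, filterByExpr with a minimum count of 10 and a total of 15; 4 group means, 40 libraries, 12753 genes), at a Benjamini-Hochberg adjusted p under 0.05, and standard errors came from the F statistics. The scripts were tested on simulated data. Descriptions used Python 3.11.15. Alternatives were DESeq2 1.42.0, limma 3.58.1 (voom, alone or with a random effect of bull), a replicate block, other scalings, filters and sets of libraries, a factor for the first library code number, and leaving out each library. Changes by bull with TMM factors were added after the data were seen. The likeness of rows used Pearson's r of deviations of log2(CPM + 0.5) from group means.

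Title numbers in the labels occur at both times, and the second library code number differs by 30 in every such pair. One protocol text gives 20 bulls in all, another 20 per group, and the libraries were read as 20 bulls sampled at both times. The deviations of same-numbered libraries correlated at 0.207 to 0.429 in restricted and 0.114 to 0.443 in control bulls, once a term for the 7 libraries was removed. Libraries of differing numbers then reached 0.178 in restricted and 0.342 in control bulls. Of the day 120 libraries, 10 of 10 in restricted and 6 of 10 in control bulls were closest to their own number. A number was taken to mark a bull, with less certainty in control bulls. Without that removal 7 of 10 pairs in each feeding group were above 0.1, and libraries of differing numbers reached 0.712 in restricted and 0.724 in control bulls. Separate bulls are replicates within a group.

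The rows, lists, named genes (all 8 rows, and the 5 most and 2 least like rows) and the 7 libraries were chosen with earlier results of these data known. The rule asked for annotated nuclear rows among the latter, and for counts of listed nuclear respiratory chain genes and cell markers. Both need gene names for the identifiers, and were not analysed here.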

Additional observations from a re-analysis of the deposited data

Results flagged for a closer look

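In the control group of day 15, CYTB was lowest in bull 5, at 11629 CPM, where the other 9 libraries lay between 14427 and 17561 CPM. The gap to the nearest library was 0.472 of the group's range, above the 95% critical value of Dixon's test for 10 libraries. The same bull had the lowest summed share of that group (8.28%) and its lowest COX1. 32 combinations of row or summed share and group were searched, and chance alone marks about 1 in 20. Without this library the log2 fold change of COX2 on day 15 was 0.42 (edgeR adjusted p = 0.0614).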

How the results depend on the processing

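No called value of a mitochondrial gene changed sign in any alternative run. Calls of the 7 genes stayed at 0 for day 120, for the change in control bulls and for the interaction in every alternative. For the change in restricted bulls the count was 1 (COX2) with the first library code number as a factor, where 3383 of all 12753 genes were called, and 0 otherwise. On day 15 it was 0 with limma and voom, with or without bull as a random effect (adjusted p of COX2 0.0570 and 0.0567), with total counts, without a low count filter, with only the groups compared, and with a term for or without the 7 libraries, and 0 to 1 leaving out each library. The replicate block for each bull changed no call of a mitochondrial gene. With it 2581 genes changed in restricted bulls, 3 in control bulls and 944 in the interaction.

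Over all genes, 1249 were called on day 120 (965 to 1507 leaving out each library), 2207 with the code factor, 2273 with the term and 2102 without the 7 libraries. On day 15, 918 were called, 579 with only the groups compared and 1413 with the term. Leaving out each library gave 567 to 1363, with 567 and 600 without control bulls 2 and 8 and 610 and 576 without previously restricted bulls 8 and 9. In restricted bulls over time 2442 were called (2071 to 2621), 3990 with the term and 4571 with the term and block. In control bulls 5 were called, 118 with DESeq2, 10 with voom and the random effect, 3 with the block, 13 with total counts, 22 with RLE factors, 28 with scaling that leaves out the mitochondrial rows, 20 with a mean of 1 CPM, 3 with only the groups compared, 8 with the code factor, 33 with the term, 90 without the 7, 8 with the term and block and 2 to 298 leaving out each library. 812 interactions (640 to 1318) became 1630 with the code factor and 1692 with the term and block, 1262 without control bull 6 on day 120 and 1318 without previously restricted bull 10 on day 15. The cause was not tested.

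The summed share over all reads was 9.17% in restricted and 8.79% in control bulls on day 120 and 10.0% in previously restricted and 8.98% in control bulls on day 15. Over the gene counts without the mitochondrial rows it was 12.2% and 11.8% on day 120 and 13.5% and 11.8% on day 15, in the same order of groups. Leaving out each library gave 10.6% to 11.1% in restricted and 10.3% to 10.8% in control bulls on day 120, and 11.4% to 12.3% in previously restricted and 10.4% to 10.8% in control bulls on day 15. Counted over all 7 genes, estimates changed sign in 11 of 364 alternative values on day 120 and 28 of 364 on day 15. Over time they did so in 19 of 378 in restricted and 65 of 378 in control bulls, and for the interaction in 49 of 371. The values of COX2 on day 15, the called gene, are among those counted and kept their sign. Alternatives for the lists of nuclear genes were not run. Depth limits none of the 7 counted rows, where counting error was at most 1.058% of a value, and says of the row named ND4 only that it was under the floor.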
